A study of Mus musculus with 10 samples.

Results

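The comparison described here is that of acetate with no treatment in Th17 cells that lack pyruvate dehydrogenase (PDH). Its members are 5 of the 10 ATAC-seq libraries of the series: 2 from PDH knockout (KO) cells given acetate, in the columns numbered 1 and 3, and 3 from untreated KO cells, in the columns numbered 1, 2 and 3. They were chosen by genotype and treatment, and all 39657 sites of the deposited table entered. KO cells came from PDHfl/fl CD4 Cre+ mice, named PHD-fl/fl_CD4cre in the titles, and the wild-type (WT) cells from PDHfl/fl mice, so both genotypes carry the floxed alleles and differ by Cre. Cre is under Cd4 regulatory sequence in this line, so deletion is limited to T cells, and the labels name neither the PDH subunit gene that was floxed nor the age of the mice. Cells of every group were naive CD4+ T cells from spleen and lymph nodes, grown for 3 days with anti-CD3, anti-CD28, IL-6, TGFβ and anti-IFNγ, and the acetate groups had 10 mM sodium acetate as well. The other libraries, 3 from untreated WT and 2 from WT cells with acetate, are used only where they show what a KO value stands beside. Nothing in the labels says that libraries came from separate animals or cultures, so p-values reflect no more than the spread from library to library, which may be technical.

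PDH is the mitochondrial complex that turns pyruvate from glycolysis into acetyl-CoA, which enters the TCA cycle as citrate. Citrate that leaves mitochondria is cut by ATP citrate lyase (Acly) into the nuclear and cytosolic acetyl-CoA used for fatty acids, sterols and histone acetylation. Acetate enters cells through monocarboxylate transporters and is turned into acetyl-CoA by the synthetases Acss1, in mitochondria, and Acss2, in the cytosol and nucleus, without need of PDH. The series title places a PDH-fed citrate pool behind Th17 effector functions, and the acetate arm asks what this other source of acetyl-CoA does when PDH is gone. ATAC-seq counts insertions of a transposase, which reach open chromatin more often than closed chromatin.

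Column names of all 3 untreated KO libraries begin with ATAC1 and those of both acetate KO libraries with ATAC2, so acetate and this prefix cannot be told apart within KO. What the prefix stands for is not given. In WT it splits the untreated group, with libraries 1 and 2 under ATAC1 and library 4 under ATAC2, beside both acetate libraries under ATAC2. The WT difference of library 4 from libraries 1 and 2, called the WT prefix difference below, is therefore printed beside results it bears on. It compares 1 library with 2 and has no test. Acetate differences within the ATAC2 libraries of WT rest on the same library 4, which enters them with the opposite sign.

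Reads in sites were 10336677, 6581268 and 5972169 in the untreated KO libraries and 11047781 and 5640663 in the acetate KO libraries, and the median site held 94 to 191 reads. The labels of genotype were checked at Cd4, since the Cre transgene carries Cd4 regulatory sequence. The site at 1 end of the Cd4 gene (chr6:124888183-124888383, GRCm38) had a median-scaled signal of 1121, 896 and 1105 in untreated KO and of 775 and 650.2 in KO with acetate, against 119 to 208 in the 5 WT libraries. All 5 KO libraries thus stood above all WT libraries there. The only site near Pdha1, which encodes a PDH subunit, lies in the gene body and checks no deletion. As for the cell type, 15 of 15 T cell identity genes had a site, and their summed median-scaled signal was 41414 to 42736 in untreated and 41625 to 43887 in acetate KO libraries. These are bulk libraries, in which fewer cells of a type and less signal per cell cannot be told apart.

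The first difference between the groups was one of total signal. With the values as deposited, sites of KO cells with acetate were typically higher than those of untreated KO cells, by a median of 0.61 on the log2 scale (1.52-fold), and 34179 of 39657 sites (86.2%) were above 0. With limma on log2(signal + 1), Benjamini-Hochberg adjusted over all sites and called at an adjusted p under 0.05, 21657 sites (54.6% of those tested) were higher and 2357 (5.94%) lower. The summed signal, in units of 1e6, was 6.29 ± 0.707 (SD, n = 3) in untreated and 8.96 ± 0.644 (SD, n = 2) in acetate KO libraries, 1.42-fold, and the libraries did not overlap. A two-sided exact permutation test gave p = 0.2, the smallest that 10 splits allow. The same sums as whole reads, before the deposited factors, differed 1.09-fold (exact p = 1), with overlap. The sources used here do not say how the authors set the factor of each library. In WT cells the deposited values moved by a median of -0.03 with acetate.

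To read single sites against the typical site, each library was therefore also scaled to a common median. On these median-scaled values the median difference was 0.01, and 5449 sites (13.7%) were higher and 5992 (15.1%) lower with acetate in KO cells. The sites that rose did so by a median of 0.91 (1.88-fold) and those that fell by -1.04 (0.487-fold). Every rise was also called higher with deposited values. Of the falls, 4879 were below 0 and 1113 above 0 with deposited values, 2357 were called lower there and 0 higher. Lower below therefore means lower relative to the typical site, and deposited differences are given for named single sites whose value is negative here and positive there. The threshold without adjustment was passed by 15650 sites. Without acetate library 1 the calls numbered 5664, and without acetate library 3 they numbered 6948, against 11441 with both. The sites are numbered as differential sites, so they may have been selected on these samples. A site is given by its nearest protein-coding gene within 50 kb, which it is not known to regulate. Genes of other kinds, such as immunoglobulin segments, were left out. Below, ± is the SE of a log2 difference, adjusted p-values are limma's, and signal values are median-scaled, in the order of the library numbers.

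**Figure D1:**
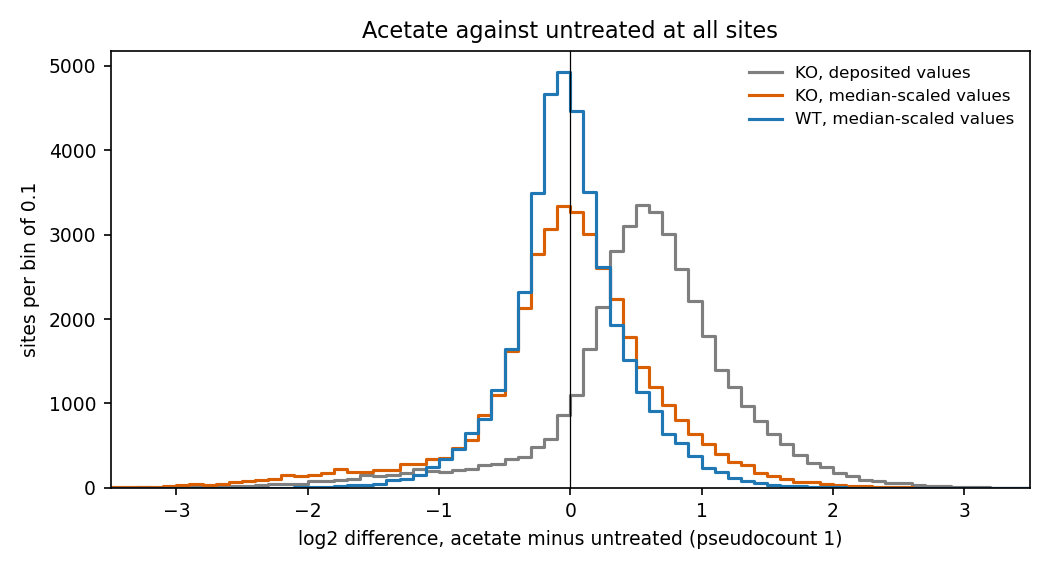
Number of sites (vertical axis, bins of 0.1) by their log2 difference between acetate and untreated cells (horizontal axis) in KO with deposited values, KO with median-scaled values and WT with median-scaled values. The KO curve of deposited values is centred at 0.61, and the median-scaled KO curve, centred at 0.01, is wider than that of WT and has a longer tail of falls.

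At 24223 sites (61.1%) no acetate library overlapped an untreated one, which held for 11436 of the 11441 called sites. A lack of overlap at a called site below is therefore no separate support. Over all 10 libraries the first principal component of median-scaled values (57.1% of the variance) set the 3 untreated KO libraries (91.6 to 99.9) apart from the other 7. The acetate KO libraries lay at -47.3 and -40.5, and the 5 WT libraries between -68.0 and -16.7. The sites that fell had a typical signal of 173 in untreated KO, 73.8 in KO with acetate, 92.1 in untreated WT and 71.5 in WT with acetate. The sites that rose had 67.4, 132, 94.8 and 133 in the same order. These 2 sets were chosen on the KO difference, so their KO values are not independent of the choice. WT libraries entered the choice through the spread estimate shared by all groups, which the WT calls below use too.

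In WT cells, acetate gave 1460 higher sites (3.68%) and 1683 lower sites (4.24%) on median-scaled values. Of the 5449 KO rises, 995 were higher in WT too and 0 lower, which is 18.3% of the KO rises and 68.2% of the WT rises. Of the 5992 KO falls, 1121 were lower in WT and 158 higher, which is 18.7% of the KO falls and 66.6% of the WT falls. The median WT difference was 0.47 at the KO rises and -0.28 at the KO falls, against -0.03 over all sites. The WT prefix difference was 0.07 at the rises and -0.12 at the falls, against 0.07 over all sites. Within the ATAC2 libraries alone, WT cells with acetate differed from untreated WT library 4 by a median of 0.41 at the KO rises and -0.24 at the KO falls, against -0.11 over all sites. The acetate difference itself was tested between genotypes: it was more positive in KO at 107 sites (0.270%) and more negative at 2508 (6.32%) on median-scaled values. With deposited values these numbers were 7728 (19.5%) and 1431 (3.61%), so the direction of this count turns with the scaling. Without acetate library 1 the deposited count was 126 positive and 375 negative, and without untreated libraries 1 or 2 it was 701 and 620 or 1668 and 599. Against the ATAC2 libraries of WT only, the median-scaled count was 2377 positive and 3163 negative. On median-scaled values of all 10 libraries, the interaction was called negative at 2292 of the 5992 KO falls and positive at 94 of the 5449 KO rises. Both sets were chosen on the KO difference, which is part of the interaction, so these counts are not independent of the choice.

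The largest rises and falls at sites of at least median signal are drawn per library in the plot of 11 rises and 12 falls. Il2 encodes the growth factor interleukin-2. A site 31166 bp from its gene body (chr3:37157120-37157320) had 75.4, 114 and 110.2 untreated and 304 and 379 with acetate, a rise of 1.78 ± 0.19 (adjusted p = 1.8e-05). Near S1pr3, a sphingosine-1-phosphate receptor (chr13:51400240-51400440), untreated values of 116, 85.0 and 115 compared with 484 and 282, a rise of 1.82 ± 0.22 (adjusted p = 3.8e-05). The groups overlapped at neither site, which was a condition for choosing them. Both sites were also higher with acetate in WT cells, by 1.09 and 0.80, with WT prefix differences of 0.11 and 0.18. At the largest rise the prefix difference in WT was as large: at Acvrl1, a receptor of the TGFβ family (chr15:101141205-101141405), the rise was 2.27 ± 0.70 (adjusted p = 0.0315). There untreated WT library 4 had 929.6 against 128 and 124 in its ATAC1 partners, while KO had 99.9, 127 and 89.7 untreated and 631 and 410.3 with acetate. The WT prefix difference was 2.87, and the call was lost without acetate library 1 (adjusted p = 0.134), without untreated library 3 (0.0543), without the lowest-signal sites (0.0521), with median-of-ratios factors (0.072), with scaling to total signal (0.0551) and with cyclic loess (0.0665).

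At the largest falls untreated KO stood above the other groups. At a site 10082 bp from Zbtb34, a zinc finger gene (chr2:33395826-33396026), values of 459, 529 and 503 untreated compared with 58.7 and 71.2 with acetate, a difference of -2.92 ± 0.25 (adjusted p = 5.2e-06; fold 0.132). At a site in the body of Gfpt1, the entry enzyme of the hexosamine pathway (chr6:87069527-87069727), 449, 529 and 616 compared with 85.3 and 104, and the 5 WT libraries held 89.1 to 123. At a site in Dmc1, a meiotic recombinase gene (chr15:79601040-79601240), 707, 771 and 760.0 compared with 139 and 152, and WT held 140.4 to 159. Acetate KO libraries thus lay among or near the WT libraries at Gfpt1 and Dmc1. At Zbtb34 they lay below all WT libraries, which held 182, 229 and 104 untreated and 74.0 and 94.3 with acetate. Untreated KO lay above all WT libraries at each of these sites. Near Gbp8, a guanylate-binding protein gene (chr5:105056606-105056806), 690.0, 789.6 and 799.7 compared with 139 and 125. The acetate difference was more negative in KO than in WT at Zbtb34, Gfpt1, Dmc1 and Gbp8, by -1.96, -2.28, -2.37 and -1.77 (limma, interaction adjusted p = 0.00386, 0.00057, 0.00012 and 0.00232). These sites were chosen for their fall in KO, which is part of this contrast. The choice thus favoured a negative sign and small p-values.

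**Figure D2:**
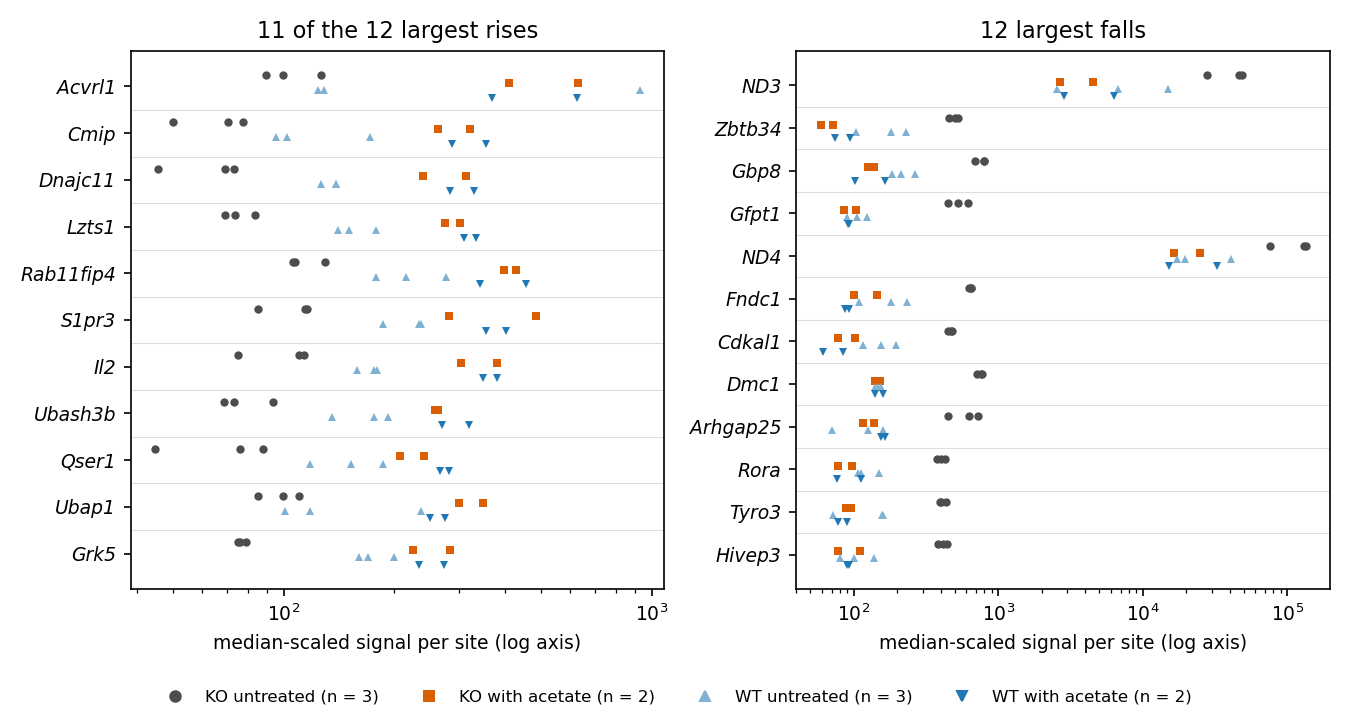
Median-scaled signal (horizontal, log axis) of 11 of the 12 largest rises (left) and 12 largest falls (right), with 1 symbol per library and the groups named in the legend. At the falls the 3 untreated KO libraries stand to the right of all others, and at Acvrl1 1 untreated WT library stands at 929.6 beside the acetate libraries.

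Mitochondrial DNA gave 2 of the 12 largest falls. The table holds 2 sites on it, at ND3 (MT:9628-9828) and ND4 (MT:11439-11639), which encode subunits of respiratory complex I. Together they took 2.01%, 1.86% and 1.18% of the signal in untreated KO libraries and 0.228% and 0.335% with acetate, 0.167-fold, without overlap (exact permutation p = 0.2, the smallest possible). The counting error is far smaller than this, with exact 95% binomial bounds of 1.17% and 1.19% for the lowest untreated library and 0.330% and 0.339% for the highest acetate library. WT libraries held 0.306%, 0.658% and 0.207% untreated and 0.201% and 0.463% with acetate. Per site, the difference was -3.51 ± 0.69 at ND3 (adjusted p = 0.00647) and -2.44 ± 0.41 at ND4 (adjusted p = 0.00129), and both calls were lost under cyclic loess (adjusted p = 0.0671 and 0.179). WT prefix differences were -1.98 and -0.72, and acetate differences within the ATAC2 libraries of WT were 0.74 and 0.36. The 2 kinds of difference share untreated WT library 4 with opposite signs, so they are not independent. The ratio of ND3 to ND4 followed the prefix: it was 0.342 to 0.369 in all 5 ATAC1 libraries and 0.147 to 0.193 in all 5 ATAC2 libraries, untreated WT included. The part of the prefix in both falls was not tested.

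**Figure D3:**
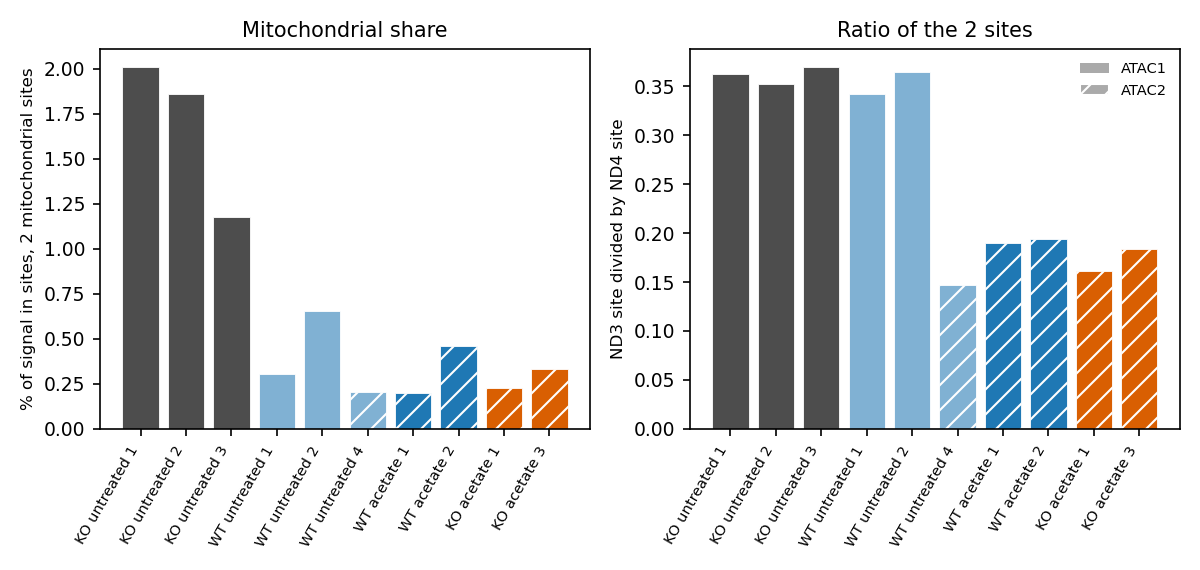
Share of the signal in the 2 mitochondrial sites (left, %) and ratio of the ND3 to the ND4 site (right), with 1 bar per library and hatching for ATAC2. Untreated KO libraries have the 3 tallest bars on the left, while the right panel splits by prefix in both genotypes.

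Th17 cells are named for IL-17, and their effector genes were looked at site by site. Il17a had 7 sites within 50 kb, of which 3 rose and 1 fell, and none of the 4 sites of Il17f was called. The strongest rise, 2537 bp from Il17a (chr1:20737033-20737233), went from 58.7, 28.8 and 42.6 to 107 and 97.5, a difference of 1.27 ± 0.28 (adjusted p = 0.00314). A neighbour at chr1:20736640-20736840 went from 168, 139.8 and 129 to 303 and 226 (0.85 ± 0.19, adjusted p = 0.00336). In both, every acetate library lay above every untreated one. The brightest site of the locus, 6079 bp away (chr1:20740575-20740775), fell instead, from 1104, 1137 and 1053 to 718 and 607 (-0.73 ± 0.16, adjusted p = 0.00338; deposited -0.13). WT prefix differences at these 3 sites were -0.55, -0.21 and -0.46. Il21, the cytokine that feeds back on Th17 cells, had 3 rises and 2 falls among 11 sites. The largest called one, 42427 bp from the gene (chr3:37180132-37180332), rose from 54.4, 73.5 and 36.8 to 129 and 150.2 (1.38 ± 0.25, adjusted p = 0.0007). The site in the gene body of Il21 was not called (-0.25 ± 0.14, adjusted p = 0.213; deposited 0.35).

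Il23r encodes the receptor that maintains Th17 cells, and its promoter was the only one called among the Th17 loci of the plot of 19 loci. The site at chr6:67491830-67492030, 75 bp before the gene's start, held 103, 104 and 116 untreated and 184 and 207 with acetate. That is a rise of 0.86 ± 0.16 (adjusted p = 0.00114) with no overlap. Untreated WT held 186, 195 and 160.4 and WT with acetate 202 and 226, so the acetate KO libraries fell within the WT range and the untreated KO libraries below it. The 6 other sites of Il23r and the 3 sites of Ccr6, the chemokine receptor of Th17 cells, were not called. The promoter is shown because it carries the element of the Th17 factor RORα. The 250 bases before the start, on the minus strand at chr6:67491856-67492105 (RefSeq, GRCm38.p6), hold AGGTCA 2 times on either strand, in capitals.
Il23r: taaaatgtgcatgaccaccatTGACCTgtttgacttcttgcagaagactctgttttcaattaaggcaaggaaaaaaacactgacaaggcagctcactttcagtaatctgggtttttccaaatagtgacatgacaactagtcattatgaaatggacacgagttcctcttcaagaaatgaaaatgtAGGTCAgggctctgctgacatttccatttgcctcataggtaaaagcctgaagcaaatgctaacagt

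The Th17 transcription factors gave a mixed picture. Rora, the gene of RORα, had 30 sites, of which 3 rose and 5 fell. Its largest fall, in the gene body (chr9:68932662-68932862), went from 375, 427 and 399.8 to 77.7 and 97.5 (-2.19 ± 0.20, adjusted p = 7.9e-06), while the WT libraries held 76.8 to 149. A rise in the same gene body (chr9:69026107-69026307) went from 285, 346 and 291 to 536 and 534 (0.80 ± 0.21, adjusted p = 0.00901). Batf, the AP-1 partner needed for Th17 fate, had 1 fall among 3 sites. At that site, 22184 bp from the gene (chr12:85664336-85664536), KO went from 182, 291 and 270.5 to 113 and 97.5 (-1.20 ± 0.22, adjusted p = 0.00083). WT moved the other way there, from 34.2, 28.2 and 26.7 to 107 and 103 (1.80, adjusted p = 0.00143), so both genotypes met near the same level with acetate. The interaction was -3.00 (adjusted p = 0.00054). Maf, a driver of IL-10 and IL-21, had 2 falls among 3 sites, of which -0.63 ± 0.22 (adjusted p = 0.0431; deposited -0.03) was lost without any 1 of the 5 KO libraries (adjusted p = 0.0728 to 0.256).

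Over 8 Th17 loci (Il17a, Il17f, Il21, Il23r, Ccr6, Rora, Batf and Maf) 10 of 68 sites rose and 11 fell, 14.7% and 16.2%, against 13.7% and 15.1% of all sites. The list of 30 Th17 genes, of which 27 had a site, gave 41 rises and 31 falls among 222 sites with a median of 0.05, beside 0.01 over all sites. That is 18.5% and 14.0% of its sites. With deposited values the median of each of the 29 lists described here and below was above 0, from 0.35 (B cell markers) to 0.87 (NK and innate lymphoid markers), and in each list except B cell markers more sites were called higher than lower. The counts below are therefore relative to the typical site, no list was tested, and their shares stand beside 13.7% higher and 15.1% lower over all sites. Among its strongest members were Bhlhe40, a regulator of cytokine output in helper T cells, and Il1r1, the receptor for IL-1. Near Bhlhe40 (chr6:108668290-108668490) the signal went from 137, 164 and 122 to 412 and 389 (1.51 ± 0.16, adjusted p = 1.8e-05). In Il1r1 (chr1:40234596-40234796) it went from 74.5, 83.6 and 79.4 to 190.5 and 169 (1.17 ± 0.17, adjusted p = 0.00012). WT cells moved the same way at both sites, by 0.84 and 0.74. At the start of Stat3, which relays IL-6, 1134, 1416 and 1055 compared with 863 and 833 (-0.49 ± 0.16, adjusted p = 0.0351). With deposited values the difference was 0.11, and without acetate library 1 the median-scaled call was lost (adjusted p = 0.139), as it was without acetate library 3 (0.164) and untreated libraries 1 (0.0681) and 2 (0.131). With cyclic loess the difference was -0.25 (adjusted p = 0.133).

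**Figure D4:**
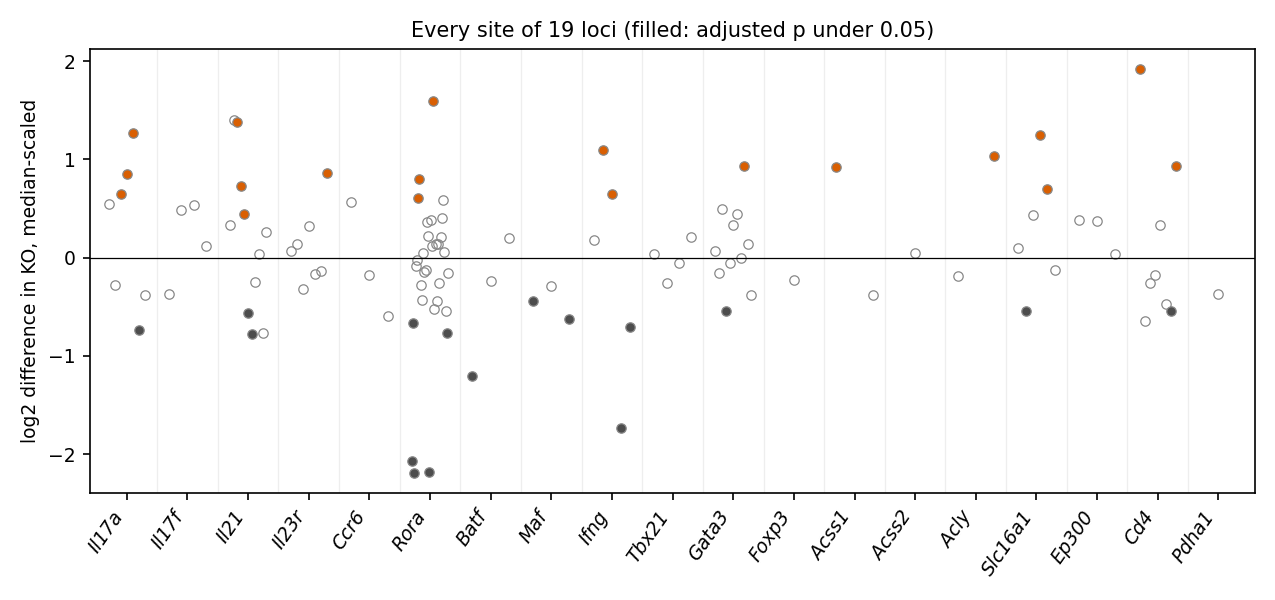
Log2 difference between acetate and untreated KO cells (vertical, median-scaled values) at every site within 50 kb of 19 loci, in order of position within a locus, filled where the adjusted p was under 0.05. Filled points of one locus lie in both directions at Il17a, Il21, Rora, Ifng, Gata3, Slc16a1 and Cd4, with 3 above 0 and 1 below at Il17a.

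Loci of other helper fates were checked in the same way. Ifng, the Th1 cytokine gene, had 2 rises and 2 falls among 5 sites. Its largest change, 31705 bp from the gene (chr10:118477599-118477799), went from 167, 170.0 and 179 to 57.9 and 44.9 (-1.74 ± 0.23, adjusted p = 7.1e-05), with WT at 33.2 to 52.5. Tbx21, the Th1 master factor gene, had no call among 4 sites, and the 1 site of Foxp3, that of regulatory T cells, was not called (-0.23 ± 0.27, adjusted p = 0.571; deposited 0.35). Gata3, the Th2 factor, had 1 rise and 1 fall among 11 sites. The Th2 list gave 5 rises and 11 falls among 56 sites (8.93% and 19.6%, median 0.04), and 32 higher and 4 lower with deposited values. A site 12629 bp from Areg, the gene of amphiregulin (chr5:91126770-91126970), went from 201, 209 and 228 to 32.8 and 38.7 (-2.54 ± 0.21, adjusted p = 3.3e-06). In WT it fell as well, by 1.08 on the log2 scale. The Th1 list gave 17 rises and 10 falls among 88 sites (19.3% and 11.4%, median 0.18), and the regulatory T cell list 24 and 25 among 183 (13.1% and 13.7%, median 0.04).

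Genes of T cell activation held the largest number of rises of any list. Of their 206 sites 50 rose (24.3%) and 17 fell (8.25%), with a median of 0.19. A rise was found at 19 of 27 genes, beside 3176 of all 12241 genes with a site. Such gene counts depend on the number of sites per gene. In the naive and memory T cell list 15 of 17 genes had a rise, with 10.6% of its sites. With deposited values 141 of the 206 activation sites were higher and 2 lower. Besides Il2, a site 5016 bp from Nfkb1, an NF-κB subunit gene (chr3:135579439-135579639), went from 144, 144 and 121 to 431 and 356 (1.52 ± 0.20, adjusted p = 7.5e-05). The start of Lif, a cytokine of the IL-6 family (chr11:4257176-4257376), went from 20.2, 38.9 and 20.6 to 77.7 and 77.4 (1.58 ± 0.37, adjusted p = 0.00461). The start of Cd44, the adhesion receptor of activated cells (chr2:102901455-102901655), went from 295, 287 and 270.5 to 561 and 491 (0.88 ± 0.17, adjusted p = 0.00129). In each of these 3 the acetate libraries lay above the untreated ones. Fewer sites moved down, among them one 44551 bp from Jun, the AP-1 subunit (chr4:95096773-95096973), from 704, 754 and 714 to 223 and 240.0 (-1.64 ± 0.19, adjusted p = 3.5e-05). WT prefix differences were 0.61 near Nfkb1, -1.30 at Lif and 0.47 at Cd44, and over the list the median was 0.06.

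Receptors and identity genes of T cells were counted next. The identity list gave 32 rises and 14 falls among 187 sites (17.1% and 7.49%, median 0.11), and the inhibitory receptor list 17 and 9 among 77 (22.1% and 11.7%, median 0.20). At a site at 1 end of Thy1, a surface marker of T cells (chr9:44043260-44043460), 265, 261 and 239.6 compared with 569.9 and 494 (1.06 ± 0.16, adjusted p = 0.00021). In the body of Vsir, the gene of the checkpoint receptor VISTA (chr10:60395737-60395937), 167, 216 and 185 compared with 452 and 479.9 (1.30 ± 0.17, adjusted p = 7.2e-05). At 1 end of Lag3, another checkpoint gene (chr6:124911638-124911838), 208, 268 and 196 compared with 661 and 517 (1.40 ± 0.23, adjusted p = 0.00045). Its WT prefix difference was 0.86, with untreated WT library 4 at 447 against 247 and 244. Cd274, the gene of the checkpoint ligand PD-L1, went the other way (chr19:29376530-29376730), from 181, 147 and 198 to 68.6 and 58.8 (-1.44 ± 0.22, adjusted p = 0.00025).

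The promoters of Gzmb, the cytotoxic protease granzyme B, and Nr4a2, an orphan receptor induced by antigen signals, are shown as examples of start sites that rose. The Gzmb site (chr14:56262269-56262469) went from 222, 274 and 244 to 501 and 483 (1.00 ± 0.15, adjusted p = 0.00018) with WT between 395 and 508, and a WT prefix difference of 0.00. The Nr4a2 site (chr2:57124102-57124302, which also touches LOC105244150) went from 190.2, 137 and 160.2 to 334 and 311 (1.00 ± 0.25, adjusted p = 0.00701) with a WT prefix difference of 0.89. Without acetate library 1 the Nr4a2 call was lost (adjusted p = 0.0733). Both lines give the 250 bases before the start on the minus strand, at chr14:56262335-56262584 and chr2:57124004-57124253 (RefSeq, GRCm38.p6). Capitals mark the AP-1 motif TGANTCA in Gzmb and the GC box GGGCGG on either strand in Nr4a2.
Gzmb: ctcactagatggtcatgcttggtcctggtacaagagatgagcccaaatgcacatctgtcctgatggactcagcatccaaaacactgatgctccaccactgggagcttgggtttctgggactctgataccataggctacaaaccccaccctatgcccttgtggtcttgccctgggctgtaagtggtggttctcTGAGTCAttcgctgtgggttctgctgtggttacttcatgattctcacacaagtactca
Nr4a2: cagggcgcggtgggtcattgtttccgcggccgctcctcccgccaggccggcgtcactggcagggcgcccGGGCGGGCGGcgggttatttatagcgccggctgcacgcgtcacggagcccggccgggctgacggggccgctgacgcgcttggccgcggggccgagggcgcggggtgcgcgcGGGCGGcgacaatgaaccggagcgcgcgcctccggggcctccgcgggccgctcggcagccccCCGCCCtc

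Of the 18 sites of genes that take up and activate acetate 4 rose and 4 fell (22.2% each, beside 13.7% and 15.1% of all sites; median 0.08). The 1 site of Acss2 held 64.9, 41.8 and 75.0 untreated and 58.7 and 63.5 with acetate (0.05 ± 0.25, adjusted p = 0.904), so the groups overlapped. Acss1 had 1 rise among 2 sites (chr2:150645341-150645541), from 41.2, 38.9 and 47.0 to 78.5 and 83.6 (0.92 ± 0.25, adjusted p = 0.0123), which was lost without acetate library 1 or 3 (adjusted p = 0.0712 and 0.0904). Slc16a1, the monocarboxylate transporter MCT1, had 2 rises and 1 fall among 6 sites, the strongest (chr3:104674698-104674898) from 28.9, 25.9 and 20.6 to 67.8 and 54.2 (1.25 ± 0.26, adjusted p = 0.00226; 0.0502 without acetate library 1). The start of Slc16a3, the lactate exporter MCT4 (chr11:120948924-120949124), went from 240.2, 236 and 181 to 315 and 361 (0.63 ± 0.19, adjusted p = 0.0221), which was lost without either acetate library or untreated library 3 (adjusted p = 0.0715 to 0.167). A site in Slc16a7, the transporter MCT2, fell by 0.95 on the log2 scale (adjusted p = 0.00065; deposited -0.35).

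Around the citrate route, 11 of 46 sites rose and 5 fell (23.9% and 10.9%, median 0.02), and Slc25a1, the citrate exporter, had no site. A site 3325 bp from Acly (chr11:100531325-100531525) went from 125, 189 and 139.7 to 326 and 286 (1.03 ± 0.19, adjusted p = 0.00099), with WT at 155 to 181 untreated and 222 and 295 with acetate. The other site of Acly, at 1 end of the gene, was not called. Near Scd2, a fatty acid desaturase gene (chr19:44312079-44312279), 23.7, 27.4 and 41.2 compared with 70.9 and 83.6 (1.34 ± 0.27, adjusted p = 0.00185). Sterol synthesis gave 9 rises and 4 falls among 39 sites (23.1% and 10.3%, median 0.05), with rises at Mvk, the mevalonate kinase (1.27 ± 0.20, adjusted p = 0.0003), at Sc5d, a late sterol desaturase (1.38 ± 0.25, adjusted p = 0.00068) and at Sqle, the squalene epoxidase (0.84 ± 0.16, adjusted p = 0.00099). WT cells moved the same way at these 3 sites, by 1.07, 0.98 and 0.40, of which the last was not called.

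PDH and TCA cycle genes gave 8 rises and 8 falls among 75 sites (10.7% each, median -0.02, deposited 0.58). In Pcx, pyruvate carboxylase, which feeds pyruvate to the TCA cycle without PDH (chr19:4620147-4620347), 138, 141 and 109 compared with 29.0 and 32.5 (-2.03 ± 0.27, adjusted p = 8.6e-05). Near Pdk1, a kinase that switches PDH off (chr2:71941492-71941692), 587, 517 and 462 compared with 269.7 and 302 (-0.86 ± 0.15, adjusted p = 0.00057). Near Pdp1, the phosphatase that switches it on (chr4:11926656-11926856), 124, 143 and 125 compared with 39.6 and 54.2 (-1.47 ± 0.23, adjusted p = 0.00024). Each of these 3 sites was lower in every acetate library. The Pdha1 site held 88.5, 67.7 and 85.3 untreated and 67.8 and 55.7 with acetate (-0.37 ± 0.22, adjusted p = 0.229; deposited 0.22). Glycolysis genes gave 10 rises and 7 falls among 77 sites (13.0% and 9.09%, median 0.14). Within Hk1, a hexokinase gene, one site rose by 2.29 ± 0.38 (adjusted p = 0.00038) and another fell by 1.46 on the log2 scale (SE 0.18, adjusted p = 4.1e-05). The rising site held 67.3 in untreated WT library 4 against 25.7 and 21.6 in the ATAC1 partners. The start of Slc2a1, the glucose transporter GLUT1, went from 469.9, 537 and 482 to 725 and 760.2 (0.58 ± 0.16, adjusted p = 0.0121), a call lost without either acetate library or untreated library 1 (adjusted p = 0.0521 to 0.0915).

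Enzymes that write, erase and read histone acetylation were counted as well, since acetyl-CoA is the substrate of the writers. Histone acetyltransferase genes gave 3 rises and 6 falls among 60 sites (5.00% and 10.0%, median -0.06, deposited 0.54), and none of the 3 sites near Ep300, the gene of p300, was called. Deacetylases and sirtuins gave 15 rises and 14 falls among 89 sites (16.9% and 15.7%, median -0.01, deposited 0.59). In Hdac9, a class IIa deacetylase gene, the largest fall (chr12:34808243-34808443) went from 217, 242 and 279 to 30.5 and 44.9 (-2.69 ± 0.27, adjusted p = 1.2e-05), with WT at 25.5 to 54.5. Another site in the gene (chr12:34812023-34812223) went from 133, 111 and 139.7 to 21.3 and 21.7 (-2.51 ± 0.34, adjusted p = 9e-05). Both again were high in untreated KO alone. Bromodomain readers gave 4 rises and 9 falls among 41 sites (9.76% and 22.0%, median -0.01, deposited 0.59), among them Baz2b, which went from 184, 176 and 215 to 35.8 and 57.3 (-2.05 ± 0.27, adjusted p = 7.9e-05).

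Genes tied to the mitochondrial genome and respiration were counted too. The nuclear respiratory chain list gave 2 rises and 6 falls among 50 sites (4.00% and 12%, median -0.04, deposited 0.55), and the list of mitochondrial DNA upkeep 2 and 6 among 35 (5.71% and 17.1%, median 0.05). Near Tfam, which packages mitochondrial DNA (chr10:71239647-71239847), 285, 308 and 301 compared with 185 and 192 (-0.66 ± 0.15, adjusted p = 0.00458; deposited -0.06), with an adjusted p of 0.0519 without acetate library 1. In Ppargc1a, the coactivator PGC-1α (chr5:52113139-52113339), 103, 129.7 and 86.7 compared with 257 and 291 (1.37 ± 0.27, adjusted p = 0.00137), and its WT prefix difference was 1.00. The stress response list gave 8 rises and 1 fall among 42 sites (19% and 2.38%, median 0.09) and the NRF2 list 5 and 1 among 50 (10.0% and 2.00%, median 0.14). Ribosomal protein genes gave 1 rise and 5 falls among 41 sites (2.44% and 12.2%, median -0.13, deposited 0.47), and cell cycle genes 7 and 9 among 86 (8.14% and 10.5%, median -0.06, deposited 0.54).

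Interferon response genes had 2 rises and 7 falls among 49 sites (4.08% and 14.3%, beside 13.7% and 15.1% of all sites; median -0.17), and with deposited values 22 were higher and 3 lower (median 0.42). The guanylate-binding and immunity-related GTPases, effectors induced by interferon, had 1 rise and 9 falls among 43 sites (2.33% and 20.9%, median -0.09, deposited 0.51). The GTPase family and the histone genes below were picked after their values were seen. At the start of Gbp5 (chr3:142496656-142496856), 401, 398 and 415 untreated compared with 161 and 189 with acetate (-1.21 ± 0.14, adjusted p = 3.6e-05; deposited -0.61). WT held 327 to 355 untreated and 266 and 258 with acetate, so untreated KO, at 398 to 415, lay above untreated WT as well. At the start of Igtp (chr11:58199437-58199637), 281, 316 and 315 compared with 178 and 127 (-1.01 ± 0.17, adjusted p = 0.00047), and WT fell by 0.76 on the log2 scale.

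Replication-dependent histone genes supply DNA packaging in S phase, and of their 61 sites 5 rose and 15 fell (8.20% and 24.6%, median -0.24, deposited 0.36). Of the 20 sites in their promoter windows 10 fell and 0 rose (median -0.43), beside 5.91% and 5.57% of the sites in all promoter windows. With deposited values the median was 0.17, 2 were higher and 0 lower, so the fall is relative to the typical site. The site at the start of H2bc11, shared with H2ac11 (chr13:22043042-22043242), went from 984, 1139.8 and 1092 to 571 and 584 (-0.89 ± 0.14, adjusted p = 0.00029; deposited -0.29). That of Top2a, the topoisomerase of dividing cells (chr11:99024287-99024487), went from 564, 527 and 541 to 283 and 324 (-0.84 ± 0.14, adjusted p = 0.00044; deposited -0.24). Acetate libraries lay below untreated ones at both starts, and WT with acetate held 728 and 596 at H2bc11 and 291 and 322 at Top2a.

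The 3 promoters are shown for the CCAAT box (CCAAT, either strand, capitals). The 250 bases before the start lie on the plus strand at chr3:142496684-142496933 for Gbp5, on the minus strand at chr11:99024190-99024439 for Top2a, and on the plus strand at chr13:22042948-22043197 for H2bc11 (RefSeq, GRCm38.p6). Top2a holds the box 6 times and a GC box 1 time, H2bc11 the box 5 times and the CRE motif TGACGTCA 1 time, all in capitals, and Gbp5 holds none of the motifs searched.
Gbp5: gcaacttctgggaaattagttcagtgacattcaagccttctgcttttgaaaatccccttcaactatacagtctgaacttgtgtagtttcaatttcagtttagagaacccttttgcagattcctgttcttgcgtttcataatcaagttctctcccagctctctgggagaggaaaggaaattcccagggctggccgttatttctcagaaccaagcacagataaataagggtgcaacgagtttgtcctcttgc
Top2a: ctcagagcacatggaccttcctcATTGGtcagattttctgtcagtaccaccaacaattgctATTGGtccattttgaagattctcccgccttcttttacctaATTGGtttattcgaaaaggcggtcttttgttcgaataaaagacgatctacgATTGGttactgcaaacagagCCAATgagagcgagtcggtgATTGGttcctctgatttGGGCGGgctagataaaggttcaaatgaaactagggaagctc
H2bc11: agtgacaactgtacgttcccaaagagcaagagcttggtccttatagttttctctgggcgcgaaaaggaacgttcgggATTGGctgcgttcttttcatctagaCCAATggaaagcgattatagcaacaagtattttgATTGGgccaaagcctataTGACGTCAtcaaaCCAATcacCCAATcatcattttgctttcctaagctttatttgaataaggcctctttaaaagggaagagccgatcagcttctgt

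Over all RefSeq promoters, the 250 bases before the start were searched on both strands. The CCAAT box was present in 52.7% of the 455 windows whose site fell, 26.0% of the 393 whose site rose, 33.5% of the 6766 whose site was not called and 33.8% of all 32851 windows. AP-1 (TGANTCA) was present in 7.03%, 9.67%, 3.67% and 6.75% in the same order. The ETS motif CCGGAAGT was present in 5.49%, 2.04%, 8.72% and 2.88%, the GC box (GGGCGG) in 45.5%, 61.1%, 64.2% and 32.7%, and the E-box (CACGTG) in 10.5%, 5.60%, 9.59% and 6.02%. CRE (TGACGTCA) was present in 1.32%, 1.78%, 3.83% and 1.55%, and the ROR element (AGGTCA) in 10.8%, 13.7%, 9.92% and 14.0%. For the CTCF motif the shares were 0.440%, 0.254%, 0.251% and 0.143%, and for NRF1 2.20%, 0.763%, 2.13% and 0.782%. Windows differ in base composition, with a median GC content of 54.4% where sites fell, 61.2% where they rose and 62.0% where they were not called. No test was made of these shares, and windows of one gene can share sequence.

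Calls were also counted by signal and by place. With the sites split by mean signal into 5 classes of equal size, 3.71% rose and 12.7% fell in the highest class, and 19.1% rose and 25.3% fell in the lowest. Within 1 kb of a gene end 7.36% rose and 6.70% fell, and in gene bodies 2434 and 3024 of 16800 did. Beyond 50 kb of any protein-coding gene 17.4% rose and 25.5% fell. That class includes sites among immunoglobulin heavy chain segments. Of 6359 sites in promoter windows 354 rose and 376 fell. The median WT prefix difference was 0.38 within 1 kb of a gene end and -0.10 beyond 50 kb. Called sites were near 3176 genes with a rise and 3661 with a fall, of which 1036 had both.

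Runs of at least 5 consecutive called sites in one direction numbered 24 for rises and 47 for falls. The longest run of rises held 11 sites over 113 kb beside Slc17a6 (chr7:51617457-51729989), with a median of 1.43 and differences from 0.96 to 2.69. Another run of 7 rises lay nearby at Gas2 (chr7:51913803-51972049, median 1.35), and 9 rises covered Sdc1 and Laptm4a (chr12:8772841-8883391, median 1.14). WT differences over these 3 runs had medians of 0.47, 0.82 and 0.76. The 2 longest runs of falls held 10 sites each. That at chr6:99866371-100084439 had no protein-coding gene within 50 kb (median -2.04). The other lay in the immunoglobulin heavy chain region (chr12:113362515-115868925, median -1.04), whose segments are not counted as genes here. WT differences there had medians of -0.15 and -0.19.

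B cell loci were among those that fell. In the whole heavy chain region 11 of 13 sites fell (84.6%, beside 15.1% of all sites; median -0.97). With deposited values 5 of these 13 sites were called lower and 0 higher (median -0.39). Of 12 B cell marker genes 6 had a site (those without one include Cd79a, Cd79b, Cr2, Fcer2a and Ms4a1), and 9 of their 21 sites fell and 1 rose (42.9% and 4.76%, median -0.24), while with deposited values 7 were lower and 6 higher (median 0.35). Their summed signal was 2317 to 2639 in untreated KO, 1623 to 1756 in KO with acetate and 1597 to 1724 in WT. A site in Pax5, the B cell identity factor (chr4:44614415-44614615), held 51.7, 72.0 and 72.0 untreated and 4.57 and 7.74 with acetate (-3.23 ± 0.44, adjusted p = 9.2e-05), and 5.63 to 13.9 in WT. In Ebf1, its partner (chr11:44793615-44793815), 75.4, 96.5 and 110.2 compared with 10.7 and 10.8 (-3.00 ± 0.34, adjusted p = 2.5e-05). In Blnk, an adaptor of the B cell receptor (chr19:40965280-40965480), 284, 285 and 323 compared with 93.7 and 77.4 (-1.79 ± 0.17, adjusted p = 1.1e-05).

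Other cell types were counted likewise. Gamma-delta T cell markers gave 5 rises and 8 falls among 21 sites (23.8% and 38.1%, median -0.25; deposited 9 higher and 3 lower, median 0.35), with sums of 2724 to 2926 untreated and 2276 to 2355 with acetate in KO, and 2091 to 2365 in WT. Their falls include Blk, a kinase shared with B cells, and Zbtb16, the innate-like factor PLZF, while their rises include the Il1r1 site described above. No site was tied to Trdc, Tcrg-C1, Tcrg-C4, Etv5 or Scart2 of this list, where only genes held as protein-coding could be given a site. Myeloid markers gave 4 rises and 1 fall among 16 sites (sums 3258 to 3352 and 3180 to 3365), NK and innate lymphoid markers 8 and 6 among 37 (5855 to 6414 and 6369 to 6945), and CD8 T cell markers 6 and 1 among 28 (5230 to 5869 and 6125 to 6341), with no site for Cd8a or Cd8b1. The part of these cells in the falls was not tested.

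**Figure D5:**
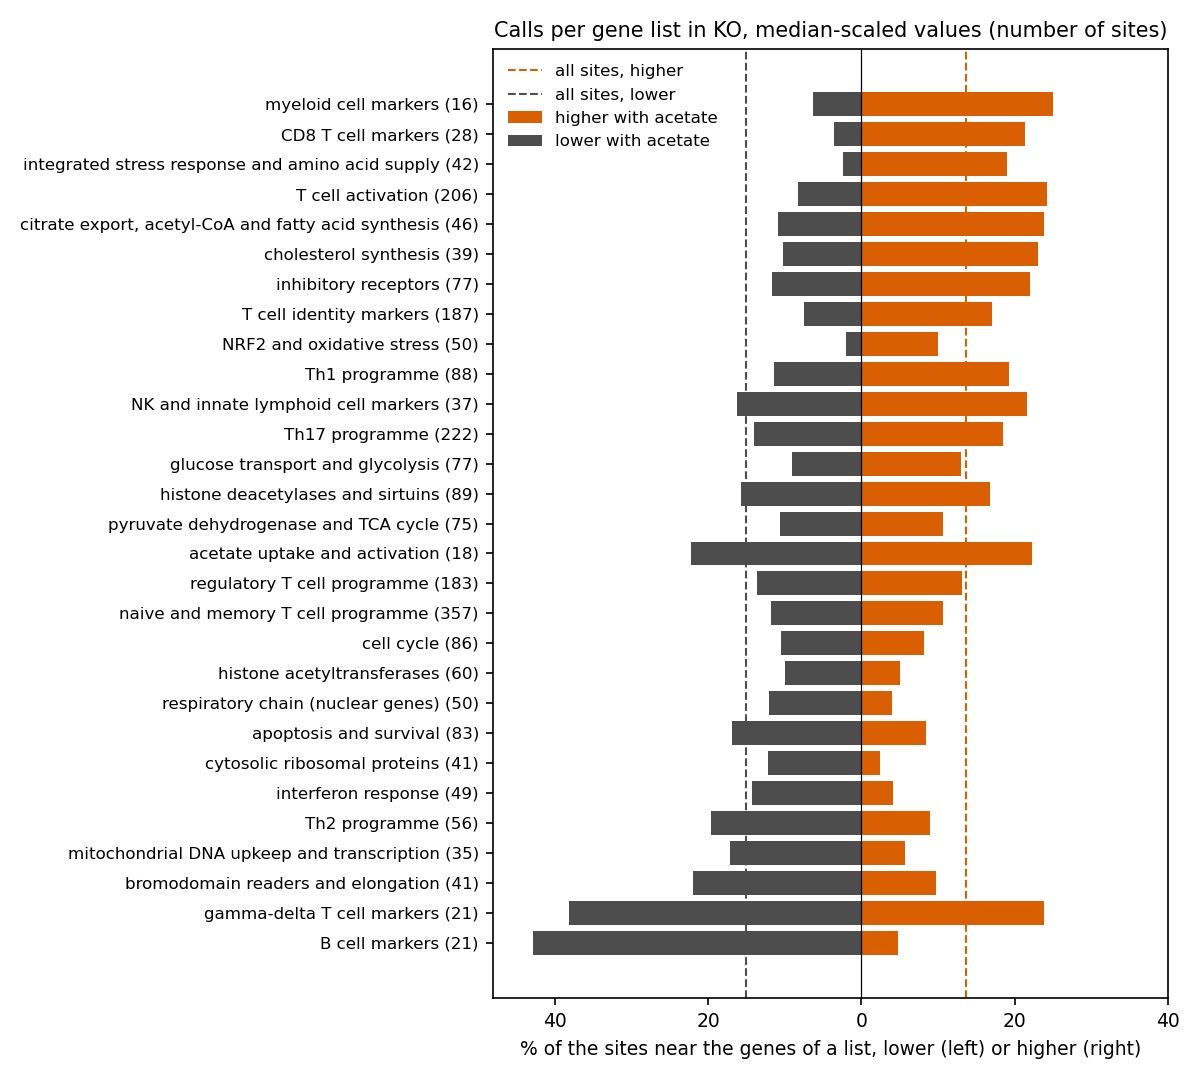
Share of sites called lower (left, %) or higher (right, %) with acetate in KO for the genes of 29 lists, with the number of sites in brackets and dashed lines at the shares over all sites, 15.1% and 13.7%. B cell markers have the largest share of falls, and T cell activation genes have 24.3% rises and 8.25% falls.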

How the data were processed

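The authors deposited 1 table of ATAC-seq signal at 39657 sites (GRCm38; 38866 of them 201 bp wide) for 10 libraries. OMNI-ATAC libraries were made from viable cells, per the labels' protocols. The submitters' processing notes name the aligner BWA 0.7.16a, deepTools 3.5.1, DiffBind 3.6.1, FastQC 0.11.5, Picard 2.10.9, Genrich, DESeq and DESeq2, with no roles given. The deposited signal is a whole multiple of 1 value per library (tolerance 0.001), read here as reads divided by a factor, and the sources used here do not give the factor's origin. Precision in each library is limited by a median of 57 to 233 reads per site. The column numbers of KO acetate library 3 and WT untreated library 4 differ from those in the titles.

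limma 3.58.1 (R 4.3.3; trend, robust) was fitted to log2(signal + 1) with 4 group means over all 10 libraries, on deposited values and on values scaled so that each library had the same median. The fit was tested on simulated data. A count model had been planned for the case of raw counts. The deposited values are signal, and the reads given above are inferred from them, so none was run. Sums were compared with two-sided exact permutation tests (scipy 1.17.1); exact binomial bounds cover counting error only. Sites were tied to RefSeq protein-coding genes (36444 sites, within 50 kb) and to 32851 promoter windows (250 bases before to 50 after a start).

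Named sites were the 12 largest rises and falls among called, non-overlapping sites of at least median mean signal (1 per gene), 22 set loci, the called list members of smallest adjusted p (at most 3 a list), and the mitochondrial sites; some of these are not reported here. Runs and gene families were added later. Printed promoters and further start sites, among them those of Lif, Stat3, Cd44, Slc16a3 and Slc2a1, were added after their values were seen. The named sites counted below include these promoter and start sites. The members, lists and loci were chosen with earlier results of these data known.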

Additional observations from a re-analysis of the deposited data

Results flagged for a closer look

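The acetate difference itself was compared between KO and WT by limma's interaction term, adjusted over all sites. It was called at 2615 sites with median-scaled and at 9159 with deposited values. The amounts and calls below are from median-scaled values, where 107 sites were more positive and 2508 more negative in KO. With deposited values 7728 were more positive and 1431 more negative. Most named sites were chosen by their KO difference, which is part of this contrast, so their signs are not independent of the choice. Among named sites the acetate difference was more positive in KO, by the log2 amount in brackets, at Lzts1 (0.88), Rab11fip4 (1.00), Grk5 (1.19), Gzmb (0.79), Slc3a2 (0.94) and Cd2 (1.44). It was more negative in KO at Zbtb34 (-1.96), Gbp8 (-1.77), Gfpt1 (-2.28), ND4 (-2.32), Fndc1 (-1.50), Cdkal1 (-1.30), Dmc1 (-2.37), Arhgap25 (-2.70), Rora (-1.81), Tyro3 (-1.61) and Hivep3 (-1.96). Further named sites with a more negative difference were Batf (-3.00), Maf (-1.54), Ifng (-1.49), Gbp5 (-0.82), Areg (-1.46), Rad50 (-2.40), Bach2 (-1.67), Jun (-1.13), Cd200 (-1.35) and Cd274 (-2.01). More negative values were also found at Slc16a7 (-1.14), Slc5a8 (-2.83), Elovl5 (-2.00), Pcx (-1.47), Hk1 (-1.60), Pfkp (-1.73), Ncoa2 (-1.68), Kat6a (-2.46), Hdac9 (-2.32), Hdac9 (-3.07) and Hdac9 (-1.86). The remaining named sites were Baz2b (-2.27), Smarca2 (-1.21), Pmaip1 (-1.65), Blnk (-1.73), Ebf1 (-2.13), Pax5 (-3.30), Itgam (-1.64), Zbtb16 (-2.81) and Blk (-2.14). 

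In KO and WT alike acetate libraries carry the ATAC2 prefix, while untreated KO libraries carry ATAC1 only and untreated WT libraries carry both, so the interaction and the prefix cannot be told apart in full.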

How the results depend on the processing

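With deposited values, 24014 sites were called, and this fell to 11587 with median-of-ratios factors (5265 higher, 6322 lower), 11847 with scaling to total signal (6856 and 4991) and 11192 with cyclic loess (4567 and 6625). Leaving out 1 KO library gave 12825 to 25159. With median-scaled values 11441 were called. The count was 7612 without the lowest-signal class of 5 equal classes of sites, where fewer sites were tested, and 16832 with the 5 KO libraries alone. Leaving out 1 KO library gave 5664 to 9171. The difference between genotypes was called at 9159 sites with deposited values, 2974 with cyclic loess, and 501 to 12031 without 1 KO library. With median-scaled values it was called at 2615, at 5540 against WT of the ATAC2 prefix only, and at 1475 to 2100 without 1 KO library. The cause of these moves was not tested. Where 1 acetate library is left out, the remaining one is assumed to vary like the other groups.

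The total signal ratio of 1.42 was 1.35 to 1.52 and the mitochondrial ratio of 0.167 was 0.136 to 0.199 without 1 KO library. A replicate block gave 21790 calls with deposited and 15179 with median-scaled values. The numbers are not known to pair samples, and deviations of same-numbered libraries correlated by 0.05 for number 1 and -0.04 for number 3. Of 126 named sites called, 100 kept the call under each of the 12 alternatives that held them, and 0 of 135 named sites reversed. The alternative without the lowest-signal sites held 105 of the 135. The count tests with edgeR and DESeq2 were not run, since the values are signal.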
